A study of Mus musculus with 17 samples.

Results

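The 39 genes described here are nuclear genes for subunits of respiratory complexes II, III and IV, for cytochrome c and for subunits of complex V, the ATP synthase. They were taken by symbol from the 27179 genes of 3 deposited count tables, in which each symbol was matched to its NCBI gene number. All 39 had a row, 38 passed the filter on low counts, and Uqcr11 did not. RNA of colon macrophage preparations from C57BL/6 mice of 8 weeks was sequenced in 17 libraries, each with a mouse number in its label. KO mice lacked MCJ, a protein of the inner mitochondrial membrane encoded by Dnajc15 that slows complex I, and WT mice carried it. In PP, mice received a broad-spectrum antibiotic for 7 days before DSS for 6 days, a sulphated sugar polymer toxic to colon epithelium (KO libraries 22, 23 and 24, WT libraries 10, 11 and 12). NP mice had the 6 days of DSS without antibiotic (KO libraries 19, 20 and 21, WT libraries 7, 8 and 9). NN mice had no treatment named in their labels (KO libraries 13 and 14, WT libraries 1, 2 and 3). The labels name no deletion design, Cre line or sorting step, and the cells were released from colon tissue with collagenase.

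Respiration passes electrons from succinate through complex II, and from complex I, to complex III, which hands them to cytochrome c and on to complex IV, where oxygen is reduced. Complexes III and IV pump protons across the inner membrane, and complex V lets them back and makes ATP. Complex II is encoded wholly in the nucleus, whereas cytochrome b of complex III, the catalytic core of complex IV and part of complex V come from the mitochondrial chromosome. Colonocytes burn butyrate through this chain, and macrophages change their use of it when they are activated.

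Promoters of such genes are known to carry sites for NRF1 and for ETS factors such as GABP, so the 31 members with a RefSeq promoter window on GRCm38.p6 (250 bases before to 50 after the start) were searched on both strands. The NRF1 motif, whose matches are shown in capitals, was in 10 of the 31 windows (32.3%), against 7.42% of 16784 genes, and the ETS motif CCGGAAG in 12 (38.7%), against 13.3%. The ERR motif TCAAGGTCA was in 2 (6.45%), against 0.375%, and the YY1 motif in 2 (6.45%), against 2.34%. GGGCGG was in 11 windows (35.5%), against 50.7% of genes, and CCAAT in 17 (54.8%), against 42.5%. Matches of different motifs may overlap. Shown are the 150 bases before the start, 5′ to 3′ on the minus strand on which the genes lie, of 4 members. Sdha has 3 NRF1 matches and did not pass the test of PP against NN, whereas Cox6a1, Atp5e and Atp5k fell in it in both genotypes. Capitals mark matches of the NRF1 motif in Sdha (chr13:74350241-74350390), of NRF1 and then ETS in Cox6a1 (chr5:115348959-115349108), of ETS in Atp5e (chr2:174464102-174464251) and of NRF1 in Atp5k (chr5:108434400-108434549), with ETS read on the opposite strand in both genes.
Sdha: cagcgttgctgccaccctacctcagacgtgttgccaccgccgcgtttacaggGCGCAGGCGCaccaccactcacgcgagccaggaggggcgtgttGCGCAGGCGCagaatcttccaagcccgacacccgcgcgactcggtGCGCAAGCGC
Cox6a1: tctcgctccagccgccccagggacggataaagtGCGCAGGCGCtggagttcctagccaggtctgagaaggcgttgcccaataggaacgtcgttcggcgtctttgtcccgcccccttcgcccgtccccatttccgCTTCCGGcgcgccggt
Atp5e: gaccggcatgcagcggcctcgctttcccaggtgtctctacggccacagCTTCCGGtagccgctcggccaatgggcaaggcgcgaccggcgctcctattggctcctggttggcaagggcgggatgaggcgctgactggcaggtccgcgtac
Atp5k: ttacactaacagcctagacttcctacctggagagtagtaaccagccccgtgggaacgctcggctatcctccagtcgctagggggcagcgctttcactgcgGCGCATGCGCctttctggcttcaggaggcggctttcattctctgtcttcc

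Libraries held between 29194744 and 37083344 counts, of which transcripts of the mitochondrial chromosome took 23.1 to 50.4%. Dnajc15 had 21, 22 and 105 counts in KO PP against 827, 817 and 939 in WT PP, and 121, 60 and 65 in KO NP against 1217, 1457 and 1534 in WT NP. In NN it had 104 and 111 counts in KO against 1286, 359 and 1028 in WT, so the groups were apart in each condition. The adjusted p of Dnajc15 in KO over WT was 0.791 in PP, 9.96e-05 in NP and 0.326 in NN (edgeR, Benjamini-Hochberg), so the gene that KO mice lack passed in NP and not in PP or NN. Macrophage markers (14 genes) summed to 3974 ± 1431 CPM in KO PP, 3515 ± 2488 in WT PP, 982 ± 525 in KO NP, 200.4 ± 46.1 in WT NP, 45.6 ± 4.75 in KO NN and 36.3 ± 9.48 in WT NN, where CPM, the unit used throughout, are counts relative to the library total after TMM scaling and errors are SD (n = 3, but 2 for KO NN). The macrophage marker Cd163 was at 0 in every NN library. Colonocyte markers (17 genes) summed to 10789 to 17258 CPM in PP, 17714 to 24323 in NP and 23172 to 34869 in NN, so the markers of the NN libraries went against the labelled cell type. In such bulk RNA, fewer cells of a type and less RNA per cell cannot be told apart.

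With TMM scaling, the members were highest in untreated WT preparations and lowest in PP. All 39 together summed to 6666, 8177 and 11732 CPM in KO PP and 8742, 12294 and 8817 CPM in WT PP. They summed to 12581, 13739 and 13259 CPM in KO NP and 17707, 15224 and 16223 CPM in WT NP. In NN the sums were 17705 and 16192 CPM in KO and 22391, 28584 and 19956 CPM in WT. Each PP library lay below each NN library of its genotype, and KO lay below WT without overlap in NP and NN but not in PP. The order of the genotypes in NN rested on the scaling. With library totals in place of TMM factors, the median log2 fold change of KO over WT in NN was 0.05, with 22 of 38 members positive. Libraries KO PP 24 and WT PP 11 stood above the other 2 of their group. Complex IV summed to 2503 ± 1033 CPM in KO PP, 2764 ± 534 CPM in WT PP, 5285 ± 297 CPM in KO NN and 8752 ± 2341 CPM in WT NN. Complex II summed to 420.2 ± 46.1 CPM in KO PP, 440.4 ± 97.8 CPM in WT PP, 785 ± 87.5 CPM in KO NN and 844 ± 8.19 CPM in WT NN. The plot of summed expression by complex gives every library.

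**Figure D1:**
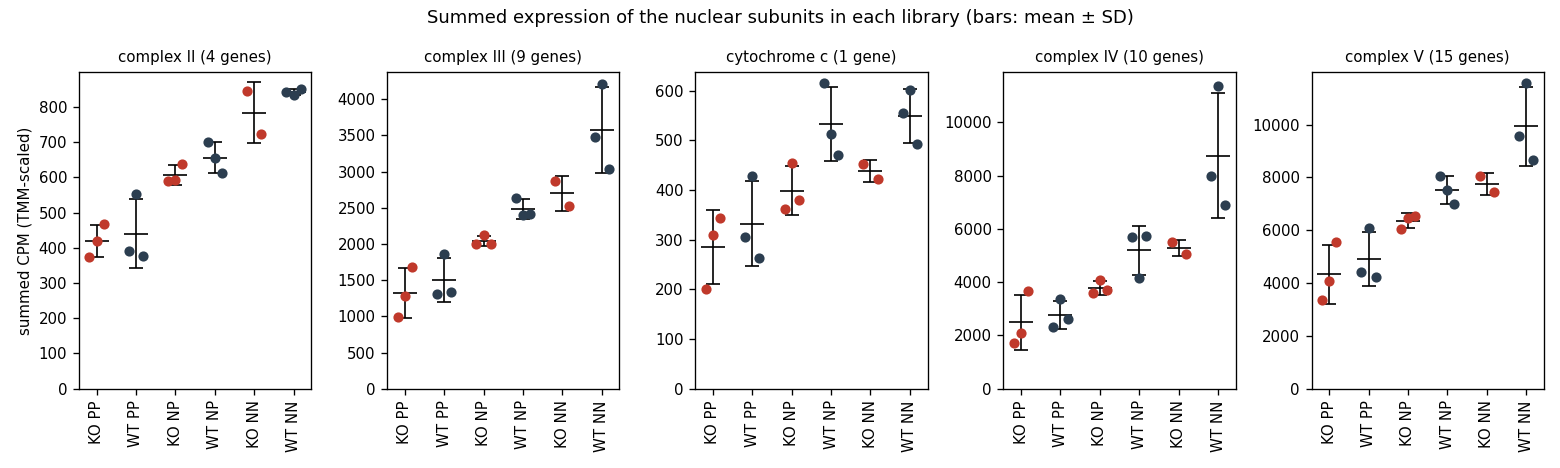
Summed CPM (TMM-scaled) of the members of complex II, complex III, cytochrome c, complex IV and complex V in each library of the 6 groups (points; red KO, dark WT), with mean ± SD as lines. With this scaling PP libraries lie below the NN libraries of their genotype in every panel, and WT NN has the highest mean in each.

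Per kilobase of transcript, Cox4i1, a regulatory subunit of complex IV, was the most abundant member in all 6 groups. It reached 698 ± 247 CPM per kilobase in KO PP, 788 ± 115 in WT PP, 990.3 ± 22.5 in KO NP, 1305 ± 195 in WT NP, 1366 ± 140.4 in KO NN and 2272 ± 654 in WT NN. The next in WT NN were Cox6c at 1893 ± 440.1 and Cox6a1 at 1882 ± 674 CPM per kilobase, within the spread of Cox4i1. Sdhd, a membrane anchor of complex II, was the lowest of the 38 tested members in each group, with 18.1 ± 5.96 CPM per kilobase in KO PP, 18.6 ± 4.34 in WT PP, 21.1 ± 7.28 in KO NN and 31.5 ± 12.1 in WT NN. This order depended on the length used: per kilobase of coding sequence, Cox8a led in each group except WT NP, in which Cox7b led. Uqcr11, a small subunit of complex III, had 6 counts in library WT NP 9, 5 in KO NN 14 and 0 in the other 15. With 0 counts in a library up to 3 remain possible, so its level was not detectable in this counting. It has near-identical copies in the genome, as do 14 other members.

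PP against NN asks what the antibiotic followed by DSS changed relative to no treatment, and here most members fell. In KO mice 21 of 38 fell and 0 rose (adjusted p under 0.05, quasi-likelihood test of edgeR, Benjamini-Hochberg), where 3.77% of all 16958 genes fell. The median log2 fold change was -1.02 over the members and 0.06 over all genes. In WT mice 32 of 38 fell and 0 rose, where 7.31% of all genes fell, with a median of -1.39 over the members and 0.27 over all genes. Every KO PP library lay below both KO NN libraries for 36 members (21.8% of all genes), and every WT PP library below every WT NN library for 35 (12.8%). Of complex II 2 of 4 fell in KO and 2 in WT mice, of complex III 5 of 8 in KO and 7 in WT mice, of complex IV 7 of 10 in KO and 10 in WT mice, and of complex V 7 of 15 in KO and 12 in WT mice. The plot of PP over NN shows each member in both genotypes.

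**Figure D2:**
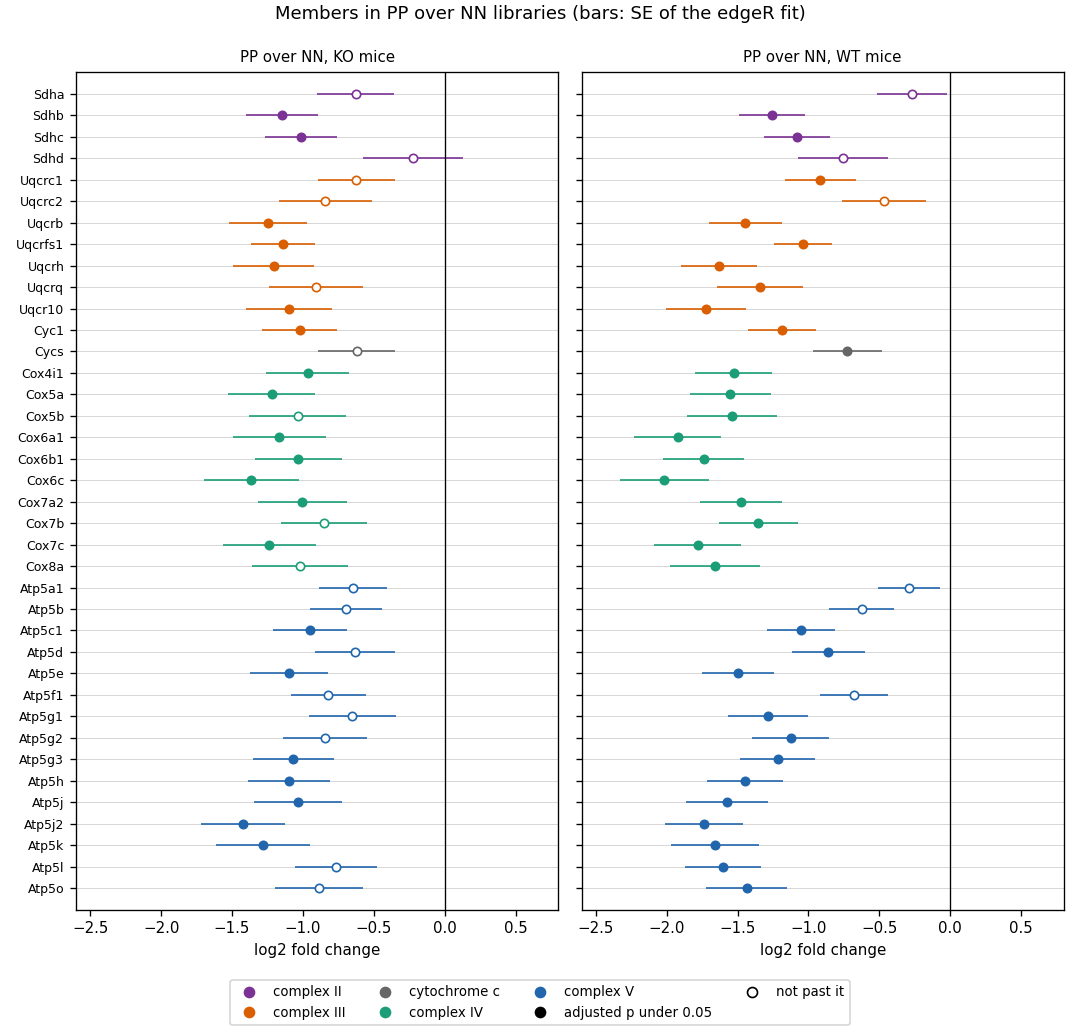
Log2 fold change of PP over NN for the 38 tested members, KO mice left and WT mice right, with the SE of the fit as bars and filled points for adjusted p under 0.05. All points lie below 0, the 10 complex IV subunits of WT mice lie between -2.02 and -1.35, and Sdha and Atp5a1 lie nearest to 0 in WT mice.

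In complex II, which oxidises succinate, Sdhb (an iron-sulphur subunit, NCBI gene 67680, chromosome 4, 140961271 to 140979198 on GRCm38) had 111, 145 and 170.2 CPM in KO PP and 351 and 278 CPM in KO NN. It had 156, 222 and 157 CPM in WT PP and 404, 486 and 386 CPM in WT NN. The PP libraries lay below the NN libraries in both genotypes, and Sdhb fell, with a log2 fold change of -1.15 (SE 0.25, adjusted p = 0.00702, edgeR, Benjamini-Hochberg) in KO mice and -1.25 (SE 0.23, adjusted p = 0.00120, edgeR, Benjamini-Hochberg) in WT mice. The anchor Sdhc also fell, at -1.02 (SE 0.25) in KO and -1.08 (SE 0.23) in WT mice. Sdha, the flavoprotein that binds succinate, had 167, 149.9 and 145 CPM in KO PP and 245 and 232 CPM in KO NN, and 129.7, 173 and 114 CPM in WT PP and 173, 117 and 214 CPM in WT NN. Its WT groups overlapped, and Sdha did not pass in KO mice (log2 fold change -0.63 with an SE of 0.27, adjusted p = 0.166, edgeR, Benjamini-Hochberg) or in WT mice (log2 fold change -0.27 with an SE of 0.25, adjusted p = 0.459, edgeR, Benjamini-Hochberg). Nor did Sdhd, at -0.22 (SE 0.35) in KO and -0.76 (SE 0.32) in WT mice.

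Complex III carries electrons to cytochrome c. Uqcr10, a small subunit (NCBI gene 66152, chromosome 11, 4701968 to 4704344), had 91.1, 119 and 177 CPM in KO PP and 291 and 261 CPM in KO NN. It had 122, 178 and 125 CPM in WT PP and 426, 641 and 337 CPM in WT NN, without overlap in either genotype. It fell, with a log2 fold change of -1.10 (SE 0.30, adjusted p = 0.0258, edgeR, Benjamini-Hochberg) in KO mice and -1.72 (SE 0.28, adjusted p = 0.000401, edgeR, Benjamini-Hochberg) in WT mice. Uqcrfs1, the Rieske iron-sulphur protein (NCBI gene 66694, chromosome 13, 30540312 to 30545316), had 123, 142 and 167 CPM in KO PP and 330.2 and 303 CPM in KO NN, and 178, 238 and 167 CPM in WT PP and 413, 427 and 354 CPM in WT NN. Its groups were apart as well, and the log2 fold change was -1.14 (SE 0.23, adjusted p = 0.00316, edgeR, Benjamini-Hochberg) in KO mice and -1.04 (SE 0.21, adjusted p = 0.00192, edgeR, Benjamini-Hochberg) in WT mice. Cyc1, Uqcrb and Uqcrh fell in both genotypes, with log2 fold changes between -1.25 and -1.02 in KO and between -1.63 and -1.19 in WT mice. Uqcrq and the core protein Uqcrc1 passed in WT mice, while Uqcrc2, the other core protein, was at -0.84 (SE 0.33) in KO and -0.47 (SE 0.30) in WT mice and passed in neither. Cycs, which encodes cytochrome c (NCBI gene 13063, chromosome 6, 50562563 to 50566569), had 201, 309.6 and 344 CPM in KO PP and 453 and 422 CPM in KO NN, and 305, 428 and 263 CPM in WT PP and 555, 601 and 492 CPM in WT NN. It lay lower in all PP libraries, with -0.62 (SE 0.27, adjusted p = 0.169, edgeR, Benjamini-Hochberg) in KO mice and -0.73 (SE 0.25, adjusted p = 0.0448, edgeR, Benjamini-Hochberg) in WT mice, where it passed.

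In complex IV, which reduces oxygen, Cox6c (NCBI gene 12864, chromosome 15, 35931976 to 35938246), a small subunit, had the largest change of the members in WT mice. Cox6c had 133, 169 and 331 CPM in KO PP and 580.0 and 505 CPM in KO NN. It had 196, 292 and 218 CPM in WT PP and 891, 1197 and 768 CPM in WT NN, so that the lowest WT NN library was above every WT PP library. It fell, with a log2 fold change of -1.36 (SE 0.34, adjusted p = 0.0140, edgeR, Benjamini-Hochberg) in KO mice and -2.02 (SE 0.32, adjusted p = 0.000283, edgeR, Benjamini-Hochberg) in WT mice. The abundant Cox4i1 had 391, 439 and 731 CPM in KO PP and 1091 and 943 CPM in KO NN, and 512, 681 and 568 CPM in WT PP and 1527, 2241 and 1309.8 CPM in WT NN. It fell, with a log2 fold change of -0.97 (SE 0.29) in KO and -1.53 (SE 0.27) in WT mice. Cox5a, Cox6a1, Cox6b1, Cox7a2 and Cox7c fell in both genotypes too. Cox5b, Cox7b and Cox8a fell in WT mice and did not pass in KO mice, where their log2 fold changes were -1.04 (SE 0.34), -0.85 (SE 0.30) and -1.02 (SE 0.34).

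Complex V has a membrane part, of which a ring of c subunits turns, and a soluble head that makes ATP. Atp5j2, the f subunit of the membrane part (NCBI gene 57423, chromosome 5, 145183704 to 145191541), had 86.1, 134 and 183 CPM in KO PP and 388 and 333 CPM in KO NN. It had 163, 225 and 159 CPM in WT PP and 549, 785 and 492 CPM in WT NN. No PP library reached an NN library, and it fell, with a log2 fold change of -1.42 (SE 0.30, adjusted p = 0.00465, edgeR, Benjamini-Hochberg) in KO mice, the largest change there, and -1.74 (SE 0.28, adjusted p = 0.000330, edgeR, Benjamini-Hochberg) in WT mice. Atp5e, the epsilon subunit of the central stalk (NCBI gene 67126, chromosome 2, 174461075 to 174464101), had 55.5, 84.8 and 119.9 CPM in KO PP and 201 and 169 CPM in KO NN, and 119, 128 and 118 CPM in WT PP and 319.8, 419.6 and 291 CPM in WT NN. It fell, with a log2 fold change of -1.10 (SE 0.28) in KO and -1.50 (SE 0.26) in WT mice. The alpha and beta subunits of the catalytic head had the smallest changes of complex V in WT mice. Atp5a1, the alpha subunit, had 865, 904 and 1058 CPM in KO PP and 1528 and 1426 CPM in KO NN, and 949, 1294 and 815 CPM in WT PP and 1242, 1234 and 1263 CPM in WT NN, with overlap in WT. Neither Atp5a1 (log2 fold change -0.29 with an SE of 0.22, adjusted p = 0.359, edgeR, Benjamini-Hochberg) nor Atp5b, the beta subunit (log2 fold change -0.63 with an SE of 0.23, adjusted p = 0.0629, edgeR, Benjamini-Hochberg), passed in WT mice, and in KO mice they were at -0.65 (SE 0.24) and -0.70 (SE 0.25), also without passing. Atp5f1, of the side stalk, likewise passed in neither genotype. Atp5c1, Atp5h, Atp5j and Atp5k also fell in both genotypes, and Atp5d, Atp5l and Atp5o in WT mice.

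The c ring, the rotor of complex V, is built from a protein that Atp5g1, Atp5g2 and Atp5g3 each encode. Atp5g1 had 117, 191 and 282 CPM in KO PP, 189, 299.6 and 193 CPM in WT PP, 285, 286 and 269.8 CPM in KO NP, 394, 350.0 and 393 CPM in WT NP, 312 and 306 CPM in KO NN, and 511, 681 and 469.6 CPM in WT NN. Its values were lower in PP than in NN without overlap in both genotypes, and so were those of the 2 paralogs. Atp5g2 had 112, 127 and 228 CPM in KO PP, 156, 208 and 189 CPM in WT PP, 206, 217 and 211 CPM in KO NP, 285, 251 and 349.6 CPM in WT NP, 314 and 245 CPM in KO NN, and 398, 485 and 324 CPM in WT NN. Atp5g3 had 217, 267 and 398 CPM in KO PP, 311, 500.1 and 308 CPM in WT PP, 436, 471 and 405 CPM in KO NP, 676, 624 and 643 CPM in WT NP, 649 and 582 CPM in KO NN, and 839, 1059.6 and 707 CPM in WT NN. In WT mice PP over NN was -1.28 (SE 0.28) for Atp5g1, -1.13 (SE 0.27) for Atp5g2 and -1.22 (SE 0.26) for Atp5g3, with adjusted p of 0.00389, 0.00673 and 0.00325 (edgeR, Benjamini-Hochberg). In KO mice they were -0.65 (SE 0.31), -0.84 (SE 0.29) and -1.07 (SE 0.28), and Atp5g3 alone of the 3 passed (adjusted p = 0.216, 0.0785 and 0.0222, edgeR, Benjamini-Hochberg). Per kilobase of transcript Atp5g3 gave the largest share of the 3, with group means between 38.1 and 42.8%. Atp5g1 gave 25.8 ± 1.98% in KO NN (n = 2) against 30.4 ± 1.10% in WT NN (n = 3). The counts of Atp5g2 are uncertain, because a near-identical copy, Gm10175, held 136492 counts over the 17 libraries against 142679 for Atp5g2.

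Over the settings tried, the count in WT mice was 22 to 34 of 38 members, the lowest with a trend on transcript length removed. The count in KO mice rested on single libraries: it was 0 without KO NN 13, 5 without KO NN 14, 6 without KO PP 22, 7 without KO PP 23 and 31 without KO PP 24, and 35 with library totals in place of TMM factors. The share of all genes that fell was then 0.816, 0.930, 2.72, 1.96, 4.58 and 5.75%, in the same order, and the median of the members was -0.95, -1.05, -0.84, -0.93, -1.28 and -1.30. With DESeq2 size factors in edgeR the KO count was 15, where 2.87% of all genes fell, and the median was -0.91. Complex IV then had 3 of 10 calls in KO mice. So the members' median stayed between -1.30 and -0.84 in these settings, and where members lost calls the share of all genes that fell was lower too. Markers of several cell types moved with the fall. Beside those of colonocytes and macrophages given above, neutrophil markers summed to 2384 ± 2205 CPM in KO PP and 854 ± 568 CPM in WT PP, against 3.58 ± 1.03 CPM in KO NN and 1.33 ± 0.450 CPM in WT NN. Red blood cell transcripts summed to 6641 ± 5475 CPM in KO PP and 307 ± 46.0 CPM in WT PP, against 4.39 ± 0.750 CPM in KO NN and 16.2 ± 5.31 CPM in WT NN. Endothelial markers summed to 80.3 ± 13.2 CPM in KO PP and 82.5 ± 40.2 CPM in WT PP, against 7.27 ± 1.83 CPM in KO NN and 19.2 ± 12.7 CPM in WT NN. Goblet cell markers (8 genes) overlapped between PP and NN in both genotypes. They summed to 2956 ± 1125 CPM in KO PP and 3473 ± 1048 CPM in WT PP, against 2223 ± 536 CPM in KO NN and 4567 ± 1858 CPM in WT NN. Libraries KO PP 24 and WT PP 11, the highest of their groups for the members at 11732 and 12294 CPM, were also the highest for colonocyte markers, at 16136 CPM against 10789 and 11234 in the other KO PP libraries and 17258 CPM against 11229 and 11906 in the other WT PP libraries. In macrophage markers WT PP 11 held 647 CPM against 5102 and 4797 in the other WT PP libraries. KO PP 24 held 2895 CPM against 3430 and 5597 in the other KO PP libraries. The ratio of the members' sum to that of the colonocyte markers averaged 0.693 in KO PP, 0.744 in WT PP, 0.636 in KO NP, 0.774 in WT NP, 0.659 in KO NN and 0.709 in WT NN, and ranged from 0.546 to 0.916 over the libraries. The ratio of PP libraries thus lay within the range of the NN libraries, unlike the sum. The part of cell makeup in the result was not tested.

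**Figure D3:**
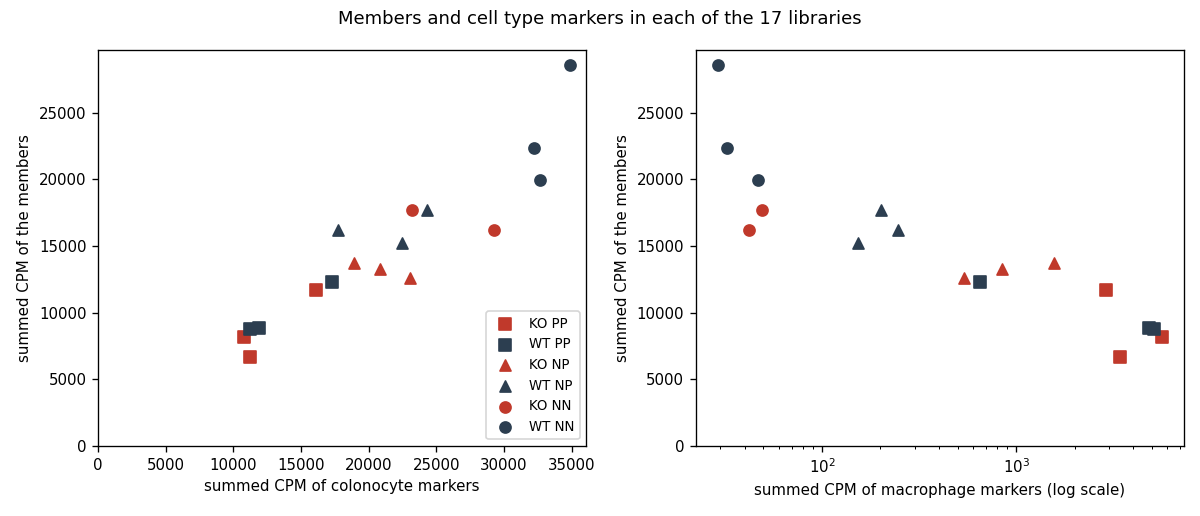
Summed CPM of the 39 members in each of the 17 libraries against the summed CPM of 17 colonocyte markers (left) and of 14 macrophage markers (right, log axis), with squares for PP, triangles for NP and circles for NN, red for KO and dark for WT. PP libraries lie at low members' sums with few colonocyte and many macrophage markers, and WT NN libraries at the opposite end.

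Short transcripts had lower log2 fold changes than long ones, among the members as among all genes. Across the 38 members, the log2 fold change of PP over NN in WT mice was higher, in ranks, at greater transcript length (Spearman's rho 0.74, against 0.21 over 14823 genes with a length, where genes share their libraries). Members of up to 600 bases had a median of -1.63, against -0.81 over other genes of that length. Above 600 and up to 1000 bases the medians were -1.53 and -0.48, above that and up to 2000 bases -0.98 and -0.03, and beyond 2000 bases -0.51 and 0.51. Members thus lay below other genes in each length class. With a trend on length removed from each library, an alternative chosen after the data had been seen, 22 members fell in KO mice, where 5.04% of genes fell, and 22 in WT mice, where 6.5% did (medians -0.70 and -0.66, over all genes 0.03 and 0.24). In WT mice complex IV then had 9 of 10 calls and complex V 5 of 15. The plot of fold change against length shows these classes.

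**Figure D4:**
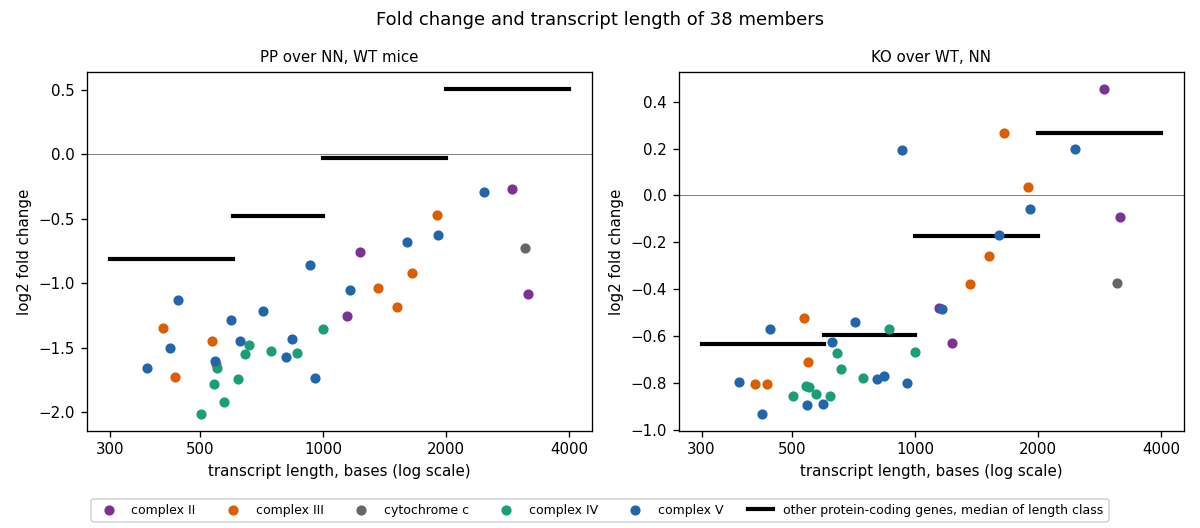
Log2 fold change of the 38 tested members against transcript length in bases (log axis), for PP over NN in WT mice (left) and KO over WT in NN (right), coloured by complex, with bars for the median of other protein-coding genes in 4 length classes. In the left panel each class of members lies below its bar, and in the right panel members of up to 600 bases have a median of -0.81 beside a bar at -0.63.

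PP against NP asks what the antibiotic added to DSS. In KO mice 0 of 38 members passed (0.389% of all genes fell, edgeR), though all 38 were negative with a median of -0.59, and 20 did not overlap (10.5%). An unadjusted p under 0.05 was reached by 23 of them (5.9% of all genes were lower by it), and 49.2% of all genes were negative. In WT mice 7 of 38 members fell (0.926% of all genes), with a median of -0.76, against 0.06 over all genes. These were Uqcr10, Uqcrb, Uqcrfs1, Cox6b1, Cox6c, Atp5j and Atp5j2. In WT mice 30 members were lower at an unadjusted p under 0.05 (1083 of 16958 genes were). Atp5j2 had 163, 225 and 159 CPM in WT PP and 442, 334 and 399.6 CPM in WT NP and fell, with a log2 fold change of -1.10 (SE 0.27, adjusted p = 0.0277, edgeR, Benjamini-Hochberg). Cox6c had 196, 292 and 218 CPM in WT PP and 585, 412 and 619.7 CPM in WT NP and fell, with a log2 fold change of -1.20 (SE 0.31, adjusted p = 0.0342, edgeR, Benjamini-Hochberg). Uqcrb, a ubiquinone-binding subunit, had 182, 276 and 209 CPM in WT PP and 474, 409 and 439.7 CPM in WT NP and fell, with a log2 fold change of -0.99 (SE 0.25, adjusted p = 0.0331, edgeR, Benjamini-Hochberg). In these 3 genes, and in 29 members in all (10.8% of genes), each WT PP library lay below each WT NP library. The counts of Uqcrb are uncertain, because a near-identical copy, Gm16089, held 58970 counts over the 17 libraries against 205911 for Uqcrb. The WT count of 7 became 0 without WT NP 7, WT NP 9, WT PP 10 or WT PP 12, 2 without WT NP 8 and 18 without WT PP 11, and was 3 with size factors by the RLE method, 12 on nuclear genes, 16 with library totals, 15 with DESeq2 and 4 with the length trend removed. The share of all genes that fell was 2.32% without WT PP 11 and 2.5% with DESeq2, and 0.0834 to 0.427% without 1 of the other 5 libraries. It was 0.731% by the RLE method, 1.05% on nuclear genes, 1.25% with library totals and 1.11% with the length trend removed. The KO count of 0 became 12 without KO PP 24, 4 with DESeq2 and 1 with the length trend removed. Of all genes 2.17% fell in KO mice with DESeq2 and 0.491% with the length trend removed. The 12 without KO PP 24 were not set beside such a share. Leaving that library out also raised the share of all genes that fell in PP against NN.

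NP against NN asks what DSS alone changed. In KO mice 0 members passed (0.0354% of all genes fell, edgeR), with a median of -0.42. There, 2 members were lower at an unadjusted p under 0.05 (1.71% of genes were), DESeq2 called 0, and 33 did not overlap (17.1% of genes, with 2 KO NN libraries). In WT mice 1 of 38 members, Atp5e, fell (0.195% of all genes), and the median was -0.53, against 0.14 over all genes. Atp5e had 186, 155 and 177 CPM in WT NP and 319.8, 419.6 and 291 CPM in WT NN, with no overlap, and fell, with a log2 fold change of -0.99 (SE 0.25, adjusted p = 0.0460, edgeR, Benjamini-Hochberg). Every WT NP library lay below every WT NN library for 25 members (6.22% of genes). In WT mice 17 members were lower at an unadjusted p under 0.05 (723 of 16958 genes were). The call of Atp5e ended with library totals, with the length trend removed and without WT NN 1, WT NN 2 or any 1 of the 3 WT NP libraries. DESeq2 called 6 members lower, where 1.45% of all genes fell. With library totals the median in WT mice was -0.02, against 0.63 over all genes, so the distance of the members from all genes was -0.65 there and -0.67 with TMM factors.

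KO against WT asks what the lack of MCJ did within a condition, and no member passed in any of the 3 (quasi-likelihood test of edgeR, Benjamini-Hochberg, where 0, 1 and 0% of all genes passed in PP, NP and NN). In each condition 33 of 38 members were negative, with medians of -0.18 in PP, -0.41 in NP and -0.65 in NN, against 0.01, 0.03 and 0.08 over all genes, of which 49.1, 47.6 and 45.3% were negative. An unadjusted p under 0.05 with a lower KO level was reached by 0 members in PP, 18 in NP and 19 in NN (2.21, 3.26 and 4.79% of all genes). Every KO library lay below every WT library for 0 members in PP (6.21% of genes), 23 in NP (7.35%) and 30 in NN (10.9%). DESeq2 called 0 members in PP, where it called 0.556% of the genes it gave an adjusted p. It called 1 higher in NP (2% of genes) and 11 lower in NN (7.94% of 3274 genes with an adjusted p). The PP median rested on single libraries: it was -0.03 without KO PP 22, with 17 of 38 members positive, -0.12 without KO PP 23, -0.49 without KO PP 24, -0.32 without WT PP 10 and -0.0045 without WT PP 11, with 19 positive. The sign in NN depended on the scaling: the median there was 0.05 with library totals and 0.01 with the length trend removed. The plot of KO over WT gives each member by condition.

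**Figure D5:**
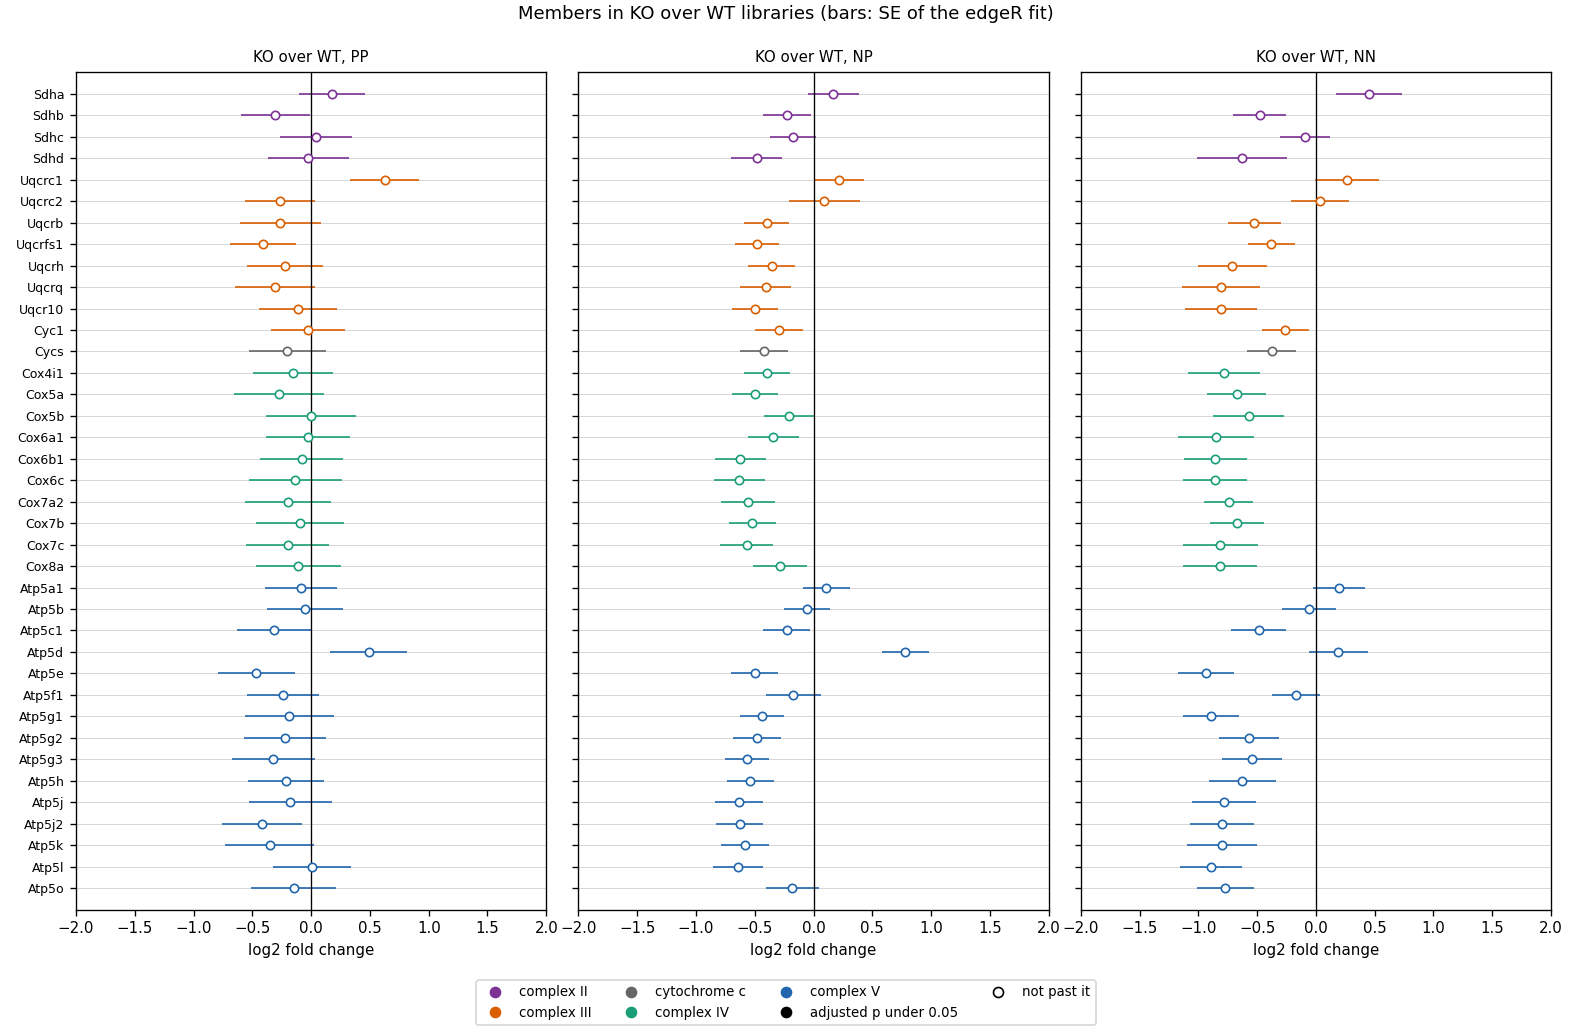
Log2 fold change of KO over WT for the 38 tested members in PP, NP and NN, with the SE of the fit as bars and open points because no adjusted p was under 0.05. With TMM factors the complex IV subunits lie at or left of 0 in all 3 panels, with a median of -0.80 in NN, and Atp5d lies right of 0 in each (with library totals the NN median of all members was 0.05).

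In NN the smallest p of complex V belonged to Atp5e, which had 201 and 169 CPM in KO NN and 319.8, 419.6 and 291 CPM in WT NN. The groups did not overlap, and KO over WT was -0.93 (SE 0.24, adjusted p = 0.572, edgeR, Benjamini-Hochberg). Cox7a2 of complex IV (NCBI gene 12866, chromosome 9, 79755241 to 79771422) had 116 and 111 CPM in KO NN and 206, 189 and 157 CPM in WT NN, likewise without overlap (log2 fold change -0.74 with an SE of 0.21, adjusted p = 0.572, edgeR, Benjamini-Hochberg). Uqcr10 of complex III had 291 and 261 CPM in KO NN and 426, 641 and 337 CPM in WT NN (log2 fold change -0.81 with an SE of 0.30, adjusted p = 0.572, edgeR, Benjamini-Hochberg). In complex II, Sdhb had 351 and 278 CPM in KO NN and 404, 486 and 386 CPM in WT NN (log2 fold change -0.48 with an SE of 0.23, adjusted p = 0.669, edgeR, Benjamini-Hochberg), and Cycs had 453 and 422 CPM in KO NN and 555, 601 and 492 CPM in WT NN (log2 fold change -0.37 with an SE of 0.21, adjusted p = 0.752, edgeR, Benjamini-Hochberg). In all 5 genes both KO libraries were below the 3 WT libraries, but with library totals Sdhb and Cycs were higher in KO (0.24 and 0.34), as was Uqcr10 with the length trend removed (0.13). The c ring genes Atp5g1, Atp5g2 and Atp5g3 were at -0.89 (SE 0.24), -0.57 (SE 0.25) and -0.54 (SE 0.25), but Atp5g2 was at 0.15 and Atp5g3 at 0.18 with library totals, and at 0.31 and 0.16 with the length trend removed. Sdha and Atp5a1 were the 2 members whose KO libraries lay above the WT libraries (20.4% of genes did), with Sdha at 245 and 232 CPM in KO NN against 173, 117 and 214 CPM in WT NN.

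These values in NN moved with length and scaling. Spearman's rho of the members' log2 fold change with transcript length was 0.79, against 0.35 over 12253 genes. By length class the medians of members and of other genes were -0.81 and -0.63 up to 600 bases, -0.74 and -0.60 to 1000, -0.32 and -0.17 to 2000, and 0.05 and 0.27 above. With the length trend removed the median of the members was 0.01, with 19 of 38 positive. The WT NN libraries had TMM factors of 0.699 to 0.837 against 1.27 and 1.16 in KO NN, and with library totals the median was 0.05, with 22 of 38 positive and a median of 0.79 over all genes. The members' distance from all genes was -0.74 then and -0.73 with TMM factors. Library WT NN 2 held the highest sum of the members, 28584 CPM, and the fewest genes with at least 10 counts, 10075, against up to 14790 in the other libraries. The mitochondrial share was 23.1 and 28.4% in KO NN against 38.9, 42.2 and 50.4% in WT NN.

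In NP, Cox6b1 of complex IV (NCBI gene 110323, chromosome 7, 30616971 to 30626114) had 381, 458 and 380.2 CPM in KO NP and 739, 492 and 646 CPM in WT NP, without overlap (log2 fold change -0.62 with an SE of 0.22, adjusted p = 0.341, edgeR, Benjamini-Hochberg). Uqcrfs1 had 231, 242 and 222 CPM in KO NP and 323, 315 and 334 CPM in WT NP (log2 fold change -0.48 with an SE of 0.19, adjusted p = 0.425, edgeR, Benjamini-Hochberg). Sdhd had 30.2, 31.3 and 29.7 CPM in KO NP and 49.2, 36.4 and 42.0 CPM in WT NP (log2 fold change -0.48 with an SE of 0.22, adjusted p = 0.539, edgeR, Benjamini-Hochberg), and Cycs had 362, 455 and 379 CPM in KO NP and 616, 513 and 470.4 CPM in WT NP (log2 fold change -0.42 with an SE of 0.20, adjusted p = 0.585, edgeR, Benjamini-Hochberg). In these genes each KO library was below each WT library. The c ring genes were at -0.44 (SE 0.19), -0.48 (SE 0.20) and -0.57 (SE 0.19). Macrophage markers were higher in KO NP, at 539, 1562 and 845 CPM, than in WT NP, at 201, 154 and 246 CPM, and colonocyte markers overlapped, at 18889 to 23054 CPM in KO NP and 17714 to 24323 CPM in WT NP. Their part in the result was not tested. With the length trend removed the median of the members in NP was -0.10.

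Atp5d, the delta subunit in the central stalk of complex V (NCBI gene 66043, chromosome 10, 80138698 to 80145828), went the other way. It had 98.3, 96.0 and 111 CPM in KO NP and 56.3, 61.9 and 59.6 CPM in WT NP, and was the 1 member with every KO NP library above every WT NP library (9.8% of genes). KO over WT was 0.78 (SE 0.20, adjusted p = 0.130, edgeR, Benjamini-Hochberg), with an unadjusted p of 0.00236. DESeq2 gave 0.76 with an adjusted p of 0.0328, and edgeR with the length trend removed gave 1.00 with an adjusted p of 0.0438 (Benjamini-Hochberg), so these settings called it higher. In PP Atp5d had 61.5, 70.9 and 104 CPM in KO PP and 42.2, 71.9 and 57.1 CPM in WT PP, with overlap (log2 fold change 0.49 with an SE of 0.33, adjusted p = 0.964, edgeR, Benjamini-Hochberg). In NN it had 134 and 110.3 CPM in KO NN and 79.4, 119 and 113 CPM in WT NN, with overlap (log2 fold change 0.19 with an SE of 0.25, adjusted p = 0.983, edgeR, Benjamini-Hochberg). Averaged over the 3 conditions KO over WT was 0.50 (SE 0.15, adjusted p = 0.176, edgeR, Benjamini-Hochberg), and with library totals 0.72 (adjusted p = 0.0391, edgeR, Benjamini-Hochberg), past the threshold. The span of Atp5d from start to end overlaps that of Cbarp on the chromosome. Shared exons were not checked, and the strand setting of the counting is not given in the sources used here. Whether reads of Cbarp were counted for Atp5d is therefore not known. In all, the spans of 13 members overlap that of another gene, among them Cox7a2, Uqcr10 and Atp5a1, and the same is not known for them.

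In PP the genotypes overlapped for each of the 38 members, where 6.21% of genes lay below and 5.53% above without overlap. The smallest p of complex III belonged to Uqcrc1, a core protein (NCBI gene 22273, chromosome 9, 108936648 to 108949641), which had 111, 144 and 164 CPM in KO PP and 89.8, 113 and 72.9 CPM in WT PP (log2 fold change 0.63 with an SE of 0.29, adjusted p = 0.942, edgeR, Benjamini-Hochberg, with an unadjusted p of 0.0628). Sdhb had 111, 145 and 170.2 CPM in KO PP and 156, 222 and 157 CPM in WT PP (log2 fold change -0.30 with an SE of 0.30, adjusted p = 0.976, edgeR, Benjamini-Hochberg). Cox5a, a matrix-side subunit of complex IV, had 139, 161 and 306 CPM in KO PP and 205, 321 and 218 CPM in WT PP (log2 fold change -0.27 with an SE of 0.38, adjusted p = 0.981, edgeR, Benjamini-Hochberg). Library KO PP 24 was the highest KO library and WT PP 11 the highest WT library in these 3 genes. Cycs was at -0.20 (SE 0.33), and the c ring genes at -0.19 (SE 0.38), -0.22 (SE 0.35) and -0.32 (SE 0.35). Uqcrc1 also had 132, 133 and 159.8 CPM in KO NP and 114, 142 and 109 CPM in WT NP, and 268 and 162 CPM in KO NN and 149, 191 and 181 CPM in WT NN. Red blood cell transcripts summed to 6641 ± 5475 CPM in KO PP against 307 ± 46.0 in WT PP, and neutrophil markers to 2384 ± 2205 in KO PP against 854 ± 568 in WT PP (SD, n = 3 each), and their part in these values was not tested. Averaged over the conditions, 34 of 38 members were negative (43% of all genes), with a median of -0.42, against 0.08 over all genes, and 0 passed, against 0.0059% of all genes. There, 27 members had an unadjusted p under 0.05 with a lower level in KO (5.61% of all genes), and 2, Atp5d and Uqcrc1 (0.38, SE 0.15), with a higher level (8.1%). The count of 0 became 3 lower without KO PP 24, 4 lower with DESeq2 and 1 higher, Atp5d, with library totals. Of all genes 1.77% were lower with DESeq2 and 0.914% higher with library totals, and the 3 without KO PP 24 were not set beside such a share.

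Whether the genotypes differed unequally between conditions was tested by interaction terms, and no member passed (adjusted p, edgeR). The difference of KO over WT had a median of 0.36 for PP minus NN, 0.20 for PP minus NP and 0.14 for NP minus NN, against -0.17, -0.06 and -0.09 over all genes. These medians rested on single libraries: over the libraries left out in turn they ranged from 0.05 (without KO PP 24) to 0.57 (without KO PP 22) for PP minus NN, from -0.10 (without KO PP 24, 27 of 38 negative) to 0.39 (without KO PP 22) for PP minus NP, and from -0.03 (without WT NN 2) to 0.25 (without KO NN 13) for NP minus NN. By edgeR 0.0531, 0 and 0% of all genes passed, and DESeq2 called 0 members as well. An unadjusted p under 0.05 was reached by 0 members in each, where 5.05, 3.46 and 2.95% of all genes reached it with a negative and 3.21, 1.76 and 2.65% with a positive difference. With library totals the medians for PP minus NN and NP minus NN were -0.33 and -0.54, the opposite sign, where all genes had medians of -0.73 and -0.75, and with the length trend removed they were -0.09 and -0.13. The 2 KO NN libraries limit the precision of the contrasts with NN.

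Other genes of the pathway were counted beside the members. Of 36 nuclear subunits of complex I, 20 fell in KO PP against KO NN and 34 in WT PP against WT NN (medians -1.04 and -1.32). Beside each count of PP against NN given here, 3.77% of all genes fell in KO and 7.31% in WT mice. The sum of the members stood at 3.13 to 3.62 times the sum of these genes over the 17 libraries. Of 30 assembly factors tested, 3 fell in KO mice, which were Surf1 at -0.98 (SE 0.27), Cox17 at -1.24 (SE 0.36) and Uqcc3 at -1.21 (SE 0.37). In WT mice 8 fell, led by Cox14 at -1.36 (SE 0.30), Surf1 at -1.02 (SE 0.25) and Coa3 at -1.27 (SE 0.32). Surf1, Cox14, Cox17 and Coa3 serve the assembly of complex IV and Uqcc3 that of complex III. Of 6 further subunits and inhibitors, 2 fell in KO and 5 in WT mice. Among them 2010107E04Rik, a small subunit of complex V, was at -1.29 (SE 0.28) in KO and -1.63 (SE 0.26) in WT mice, and Atpif1, the inhibitor of ATP hydrolysis by complex V, at -1.06 (SE 0.31) in KO and -1.12 (SE 0.29) in WT mice. No gene of these lists passed between genotypes by edgeR, and an unadjusted p under 0.05 was reached by 0 lower and 0 higher in PP, 2 lower and 0 higher in NP and 3 lower and 0 higher in NN of the 30 assembly factors. Of all genes 2.21, 3.26 and 4.79% were lower by it in PP, NP and NN. The assembly factors with the smallest p in KO over WT were Uqcc3 in PP at -0.81 (SE 0.36), Sdhaf4 of complex II in NP at -0.81 (SE 0.33) and Coa3 in NN at -0.86 (SE 0.30). Of the further subunits they were 2010107E04Rik in PP at -0.51 (SE 0.31), Usmg5 in NP at -0.64 (SE 0.21) and 2010107E04Rik in NN at -0.92 (SE 0.26).

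Isoforms that belong to other tissues stayed under 3 CPM in each library, with the exception of Cox7a1, the form of Cox7a known from muscle. Cox7a1 had 4.64, 5.15 and 11.6 CPM in KO PP, 5.93, 16.2 and 10.7 CPM in WT PP, 20.8, 26.1 and 34.9 CPM in KO NP, 46.2, 24.1 and 40.9 CPM in WT NP, 68.5 and 70.5 CPM in KO NN, and 94.9, 168 and 102 CPM in WT NN. PP libraries lay lowest and WT NN libraries highest. Cox7a1 fell, with -3.29 (SE 0.46, adjusted p = 0.000169, edgeR, Benjamini-Hochberg) in KO PP against KO NN and -3.48 (SE 0.44, adjusted p = 3.91e-05, edgeR, Benjamini-Hochberg) in WT PP against WT NN. It was also called lower in both genotypes in PP against NP, at -1.94 (SE 0.41) in KO and -1.76 (SE 0.41) in WT mice. In NP against NN it was called lower in WT mice, at -1.72 (adjusted p = 0.0326, edgeR, Benjamini-Hochberg), and not in KO mice. Smooth muscle markers (7 genes) were at 98.8 ± 45.3 CPM in KO PP, 282 ± 257 in WT PP, 146.9 ± 64.4 in KO NP, 119.4 ± 16.5 in WT NP, 65.1 ± 4.70 in KO NN and 94.6 ± 54.9 in WT NN (SD). Their part in the fall of Cox7a1 was not tested. Among 10 regulators, Esrra, a nuclear receptor that drives respiratory genes, fell in PP against NN, with -1.36 (SE 0.35, adjusted p = 0.0173, edgeR, Benjamini-Hochberg) in KO and -1.03 (SE 0.32, adjusted p = 0.0289, edgeR, Benjamini-Hochberg) in WT mice. In WT mice the GABP genes Gabpa (1.25, SE 0.40) and Gabpb1 (1.59, SE 0.51) rose, and the other 7 regulators did not pass. Gabpa overlaps Atp5j, which fell there, at -1.57 (SE 0.29). Between genotypes no isoform or regulator passed, and Cox7a1 was at -0.60 (SE 0.52) in PP, -0.44 (SE 0.30) in NP and -0.86 (SE 0.29) in NN.

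Members with and members without the promoter motifs were among those that fell in PP against NN. In WT mice, with an NRF1 match 8 of 10 fell (median -1.17) and without one 18 of 20 (median -1.52), and with an ETS match 10 of 11 fell (median -1.60) and without one 16 of 19 (median -1.22). In KO mice 5 of 10 with and 11 of 20 without an NRF1 match fell, and 8 of 11 with and 8 of 19 without an ETS match. The members with an ETS match were shorter, at a median of 571 bases against 931. A match is a description of the sequence, and the part of length in this split was not tested.

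Transcripts from the mitochondrial chromosome for complexes III to V (mt-Cytb, mt-Co1, mt-Co2, mt-Co3, mt-Atp6 and mt-Atp8) gave no call by edgeR. In PP against NN they had 0 lower and 1 higher at an unadjusted p under 0.05 in KO and 1 lower and 0 higher in WT mice, with medians of 0.43 in KO and -0.34 in WT mice. Their sum was 24.7 to 27.9 times that of the members in KO PP, 27.5 to 49.4 times in WT PP, 16.9 to 31.7 in KO NP, 13.1 to 21.2 in WT NP, 8.34 and 12.5 in KO NN and 17.2 to 27.7 in WT NN. KO NN had the lowest ratios, without overlap with WT NN. In KO over WT in NN the median of these 6 genes was -1.47, with 5 lower and 0 higher at an unadjusted p under 0.05 (4.79% of all genes were lower by it).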

How the data were processed

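Whole-number read counts per gene were deposited by the authors in 3 tables, 1 for each of PP, NP and NN, with 27179 genes and 17 libraries in all. Every value column was assigned to a library, leaving 0 columns without a sample. Per the submitters' processing notes, CASAVA 1.8.2, FastQC, Trim Galore, STAR 2.5.4 and DESeq2 were used with mm10. The counting program, annotation and strand setting are not given in the sources used here. Per the labels, the kit was NuGEN Universal Plus mRNA-Seq, and each library carries the number of 1 mouse. Gene numbers were named from RefSeq (25275), GENCODE M21 (17) or not at all (1887 genes, 1.39 to 7.32% of counts). Total counts of 29194744 to 37083344 per library set the precision.

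Counts were tested with edgeR 4.0.16 (quasi-likelihood, filterByExpr, TMM factors, R 4.3.3, limma 3.58.1) over all genes, with Benjamini-Hochberg adjustment at 0.05. KO was set against WT within each table. Treatment contrasts, the average of KO over WT and the interactions came from 1 fit of all libraries. Transcript length is that of the GENCODE M21 transcript with the best APPRIS principal tag, with ties settled by transcript support level and then by the shortest length. Near-identical copies (at least 95% identity over 80% of the coding sequence) were found with BLAST 2.17.0, and figures were drawn with matplotlib 3.10.9. The scripts were tested on simulated counts. Alternatives were DESeq2 size factors, nuclear genes only, library totals, DESeq2 1.42.0, no filter, 1 fit of all libraries for the genotype comparisons, coding length, leaving out each library and, chosen after the data had been seen, a trend on transcript length and the mouse number as a block.

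The members and lists were chosen with earlier results of these data known. Named with values in each library were members past the threshold (where more than 6 passed, the smallest p in each complex and the largest change), the smallest p in each complex in the genotype comparisons, members opposite in sign to the median with an unadjusted p under 0.05, the c ring genes and Cycs. Cox4i1, Sdha, Atp5a1 and Atp5e outside its calls were named after their values had been seen. Of other lists, the 3 with the smallest p among those that passed were named, and otherwise the 1 with the smallest p.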

Additional observations from a re-analysis of the deposited data

How the results depend on the processing

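Of the counts of members called, Dnajc15 and the level order, 176 values under the alternatives kept their direction or stayed within 1.5 times, and 33 did not. PP against NN in KO called 21 members, 35 with library totals and 0 to 31 when single libraries were left out, and in WT 29 to 34. PP against NP in WT called 7, but 3 with DESeq2 size factors in edgeR, 12 on nuclear genes, 16 with library totals, 15 with DESeq2, 4 with the length trend removed and 0 to 18 without single libraries. PP against NP in KO called 0, but 4 with DESeq2, 1 with the length trend removed and 0 to 12 without single libraries. NP against NN in WT called 1, but 0 with library totals or the length trend removed, 6 with DESeq2 and 0 to 1 without single libraries. KO against WT called 0 in each condition, but 11 in NN and 1 in NP with DESeq2, and 1 in NP with the length trend removed. The average of KO over WT called 0, but 1 with library totals, 4 with DESeq2 and 0 to 3 without single libraries. The share of all genes called moved as well. With DESeq2 2.17% fell in PP against NP in KO, against 0.389% by edgeR. In NP against NN in WT 1.45% fell with DESeq2, against 0.195% by edgeR. The average of KO over WT had 1.77% lower with DESeq2. KO against WT in NP had 1.03% higher with the length trend removed. The cause of these shifts was not tested. Dnajc15 in KO over WT averaged over the 3 conditions ranged from -4.49 to -3.88 without single libraries. In NN the sign of KO over WT turned with library totals for Atp5g2 (0.15), Atp5g3 (0.18), Cycs (0.34) and Sdhb (0.24), and with the length trend removed for Atp5g2 (0.31), Atp5g3 (0.16) and Uqcr10 (0.13). In PP it turned for Atp5g1 without KO PP 22 (0.035) or WT PP 11 (0.054) and for Cycs without WT PP 11 (0.017), in ranges of -0.55 to 0.054 and of -0.37 to 0.017 over the single libraries left out. Of other values of single members, 526 kept their direction and side of the threshold, 43 lost and 11 gained a call. Mouse numbers of the labels recur in different mice, and the compared groups share at least 2 of them in KO against WT in NN and in NP against NN in KO. With the mouse number as a replicate block in a fit of those 2 groups, chosen after the data had been seen, 0 members were called in either, as without it. In NP against NN in KO, 3.29% of all genes fell and 8.43% rose with the block, against 0.0354 and 2.04% without it. In KO against WT in NN 0% of all genes passed with the block. Deviations of same-numbered libraries from their group mean correlated at -0.056 and -0.052 in the first and at 0.00063 and 0.036 in the second, across genes. With 2 KO NN libraries their deviations mirror each other. These values therefore cannot tell whether same-numbered libraries share more than a number. Libraries of 2 or 3 mice a group limit all tests. The median of KO over WT in NN over all genes was 0.79 with library totals and 0.08 with TMM factors.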
